A study of Lithobates clamitans with 20 samples.

Results

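The genes described here are the most abundant transcripts of the tadpole gut, where abundance means reads, not divided by transcript length. They were chosen by level alone, as the genes whose mean over 20 tadpoles was at least 1000 CPM (the counts of a gene scaled to a common library total with edgeR's TMM factors), and 148 of the 8477 genes in the table met this rule. Just inside the limit were AB205_0082100 at 1037 CPM and AB205_0180410 at 1029 CPM, and just outside it were AB205_0017830 at 996.0 CPM and AB205_0087120 at 990.2 CPM. Abundance is therefore the rule itself and not a finding, and the low TMM factors of a group of tadpoles, which were in view when the genes were proposed, are given as values without a test.

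RNA was sequenced from the gut of green frog (Lithobates clamitans) tadpoles that all descended from a single pair of adults, with 1 library per tadpole and 5 tadpoles in each of 4 groups. Tadpoles were raised in pond water, which leaves them colonized by a natural microbiome, or in autoclaved pond water, which leaves them depleted, and were then held at 22°C or moved to 32°C for 24 h. Each tadpole carries a code with a letter and a temperature, and the groups are named by it: C22, C32, D22 and D32. Read as colonized or depleted, the codes make D22 the cool depleted and C32 the warm colonized tadpoles. The treatment fields of the sample records instead describe the C32 tadpoles as cool and depleted and the D22 tadpoles as warm and colonized, while both records make C22 cool colonized and D32 warm depleted. The 4 sets of 5 tadpoles are the same under both records, so every pairwise value below holds for the same animals, but which treatment separates a pair depends on the record. By the codes, D32 against D22 is warm against cool in depleted tadpoles, and by the treatment fields it is depleted against colonized in warm tadpoles. Depletion lowers and changes the gut microbiome rather than removing it, and with shared parents differences between families are not sampled.

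In RNA sequencing a library is a fixed number of reads divided among transcripts, so that a transcript which takes a larger share leaves less for all others. In vertebrate guts the most abundant messages commonly come from digestive enzymes, from ribosomal proteins and from the mitochondrial genome, and their share of a library can move with feeding, temperature and the mix of cell types. TMM scaling compares each library with a reference gene by gene, trims the extremes, and gives a factor below 1 to a library in which most genes sit low because a few transcripts take more of the reads. The identifiers in the table come from the American bullfrog draft genome and are not paired with gene names there, so no role is given for any gene, and the tissue label was not checked against marker genes. Each gut was split along its length and RNA came from 1 portion with all its tissues, so fewer cells of a type and less RNA per cell cannot be told apart.

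Total counts ran from 11102195 to 22922461 per tadpole. C22 had the fewest, with a median of 16533610 against 21918522 in C32, 21154306 in D22 and 21707665 in D32. At this depth counting error was small. The 95% exact binomial interval for the share of the 148 genes in the shallowest library, C2208, was 64.6 to 64.7%. It covers counting error only. No labels give a sequencing batch. Several libraries stood apart from their group and touch results below. C2206 resembled D22 in the share of the 148 genes and in its TMM factor, but not in every gene. For AB205_0012300 it had 9399 CPM, where the lowest D22 tadpole had 22861. D2209 lay nearest to the other groups among the D22 tadpoles. In C2208 a single gene took 7.05% of counts, and D3202 stood apart in D32.

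The 148 genes held most of the reads in every tadpole, between 55.4 and 72.5% of counts. In D22 they took 72.5, 70.9, 70.8, 68.2 and 63.4% of counts, a mean of 69.2 ± 3.59% (SD, n = 5). In D32 they took 66.4, 58.9, 59.8, 59.8 and 58.1%, a mean of 60.6 ± 3.32%. All D22 tadpoles except D2209 were above all D32 tadpoles, and D2209 was below D3202 alone. In C22 the genes took 57.2, 61.6, 71.6, 55.4 and 64.7% (mean 62.1 ± 6.44%), with C2206 the highest, and in C32 58.3, 59.0, 64.9, 64.7 and 61.5% (mean 61.7 ± 3.10%).

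The mean share was 69.2% in D22 and 60.6% in D32, a difference of -8.55 percentage points, and D22 exceeded C22 by 7.07 points, or 9.45 points without C2206. These differences are given without a test, since the low TMM factors of D22, which were in view when the genes were proposed, come from the same composition of the counts. C32 and C22 differed by -0.41 points (two-sided exact permutation test over all divisions of the 10 tadpoles, p = 0.944) and D32 and C32 by -1.07 points (exact permutation p = 0.595), both less than the spread between tadpoles of a group.

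In net terms the larger share in D22 sat in the very top of the list, which was ranked by a mean that includes D22. The 10 genes with the highest mean CPM took 28.1 ± 2.53% of counts in D22, from 25.5 to 31.7%, against 21.3 ± 4.46% in C22, 22.5 ± 3.10% in C32 and 21.5 ± 2.82% in D32. Their share was 6.82 points higher in D22 than in C22 and differed by -6.61 points between D32 and D22, again given without a test. The other 138 genes took 41.0% of counts in D22, 40.8% in C22, 39.2% in C32 and 39.1% in D32, and their share differed by 0.25 points between D22 and C22 and by -1.94 points between D32 and D22. The counts were also more concentrated in D22 by the median, where 36 to 58 genes made up 50% of them, with a median of 41. The medians were 67 in C22 (38 to 95), 66 in C32 (53 to 83) and 69 in D32 (49 to 78), so each group overlapped D22.

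**Figure D1:**
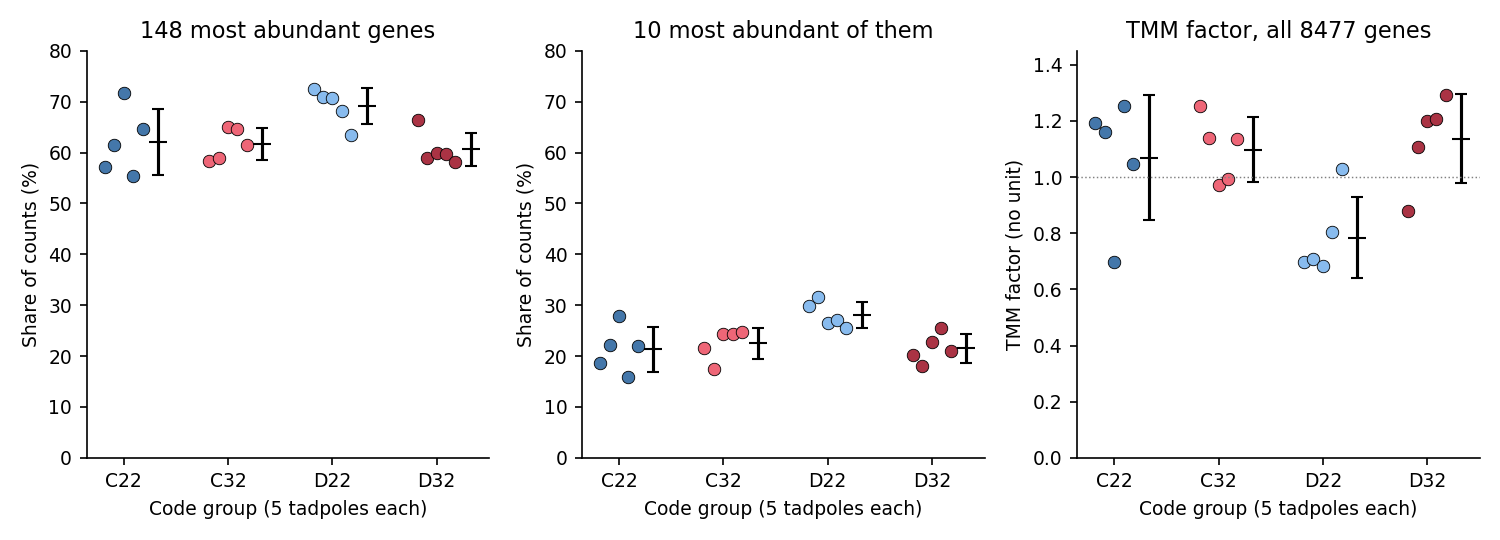
Share of counts taken by the 148 most abundant genes (left) and by the 10 most abundant of them (middle), in percent of each library, and TMM factor of each library (right, no unit), with 1 point per tadpole in groups of 5 and a bar for the mean ± SD. The D22 tadpoles took 63.4 to 72.5% with the 148 genes and had factors of 0.682 to 1.03, and C2206 lay with them at 71.6% and 0.697.

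Within the list, gains and losses both contributed. Compared with the other 15 tadpoles, 89 of the 148 genes took a larger mean share in D22, 16.7 percentage points in sum, and 59 took a smaller one, -9.00 points in sum, for a net 7.70 points. The 10 genes with the largest gains added 9.29 points, of which AB205_0049210 alone gave 3.75. Next came AB205_0012300 with 0.93 points, AB205_0103950 with 0.87, AB205_0169310 with 0.78 and AB205_0171850 with 0.65. The largest losses were those of AB205_0169950 at -1.83 points, AB205_0182740 at -0.82, AB205_0062790 at -0.59, AB205_0065710 at -0.47 and AB205_0092280 at -0.44. The loss of AB205_0062790 rested on C2208, without which it was -0.13 points, the gain of AB205_0012300 was 0.42 points without D2209, and that of AB205_0103950 was 0.53 points without D2202. Pooling the other 15 tadpoles hides differences between their groups. AB205_0049210 took 8.92% of counts in D22, against 5.80% in C22, 4.67% in C32 and 5.04% in D32. AB205_0169950, however, took 2.57% in D22 and 2.75% in C22, against 5.11% in C32 and 5.33% in D32. AB205_0012300 took 2.96% in D22 and 2.83% in D32, and AB205_0103950 took 3.24% in D22 and 3.13% in C22. The list thus did not move as a block.

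AB205_0049210 was the most abundant gene of the gut by reads, with a mean of 66607 CPM, and the top gene in 13 of 20 tadpoles, among them all 5 of D22. Its CPM in D22 were 135019, 186297, 119468, 89013 and 65229, and in D32 54776, 42289, 45499, 48893 and 33591. The D22 and D32 values did not overlap. It fell by 1.40 on the log2 scale from D22 to D32 (SE 0.28, edgeR quasi-likelihood adjusted p = 0.0178). In C22 it had 41763, 50185, 110493, 29465 and 65000 CPM, the highest in C2206, and in C32 33926, 33321, 48849, 49887 and 49176. D22 and C22 overlapped, with a log2 fold change of 0.97 (SE 0.40, adjusted p = 0.382). At its highest, in D2202, it took 13.2% of all counts.

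AB205_0169950, the second most abundant gene with a mean of 38134 CPM, followed another pattern. It was the top gene in 6 tadpoles, 4 of C32 and 2 of D32. Its CPM were 28933, 27047, 19955, 26071 and 23987 in C22 and 41080, 40582, 48165, 51173 and 53242 in C32, with no overlap. In D22 they were 41098, 22315, 26423, 36417 and 35720, and in D32 73947, 33987, 39064, 45035 and 48427. The codes with 32 exceeded those with 22 over all 20 tadpoles (log2 fold change 0.72, SE 0.16, edgeR adjusted p = 0.00371), while the pairwise values of 0.90 (adjusted p = 0.0546) in C and 0.57 (adjusted p = 0.167) in D did not pass.

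AB205_0103950 and AB205_0120320 came next in abundance and, like AB205_0049210, were lower in D32 than in D22. AB205_0103950 had 51924, 65217, 47857, 32520 and 20475 CPM in D22 and 15753, 19791, 17498, 15225 and 12349 in D32, without overlap. It fell by 1.44 on the log2 scale (SE 0.30, edgeR adjusted p = 0.0200). AB205_0120320 had 40925, 51058, 38089, 22128 and 14569 CPM in D22 and 15933, 16094, 12790, 11025 and 9775 in D32, where D2209 lay within the D32 range. It fell by 1.35 (SE 0.34, edgeR adjusted p = 0.0346). With single tadpoles left out the adjusted p reached 0.0539 for AB205_0103950 and 0.0841 for AB205_0120320. Over 14 alternatives in scaling, tool and tadpoles left out, the call was lost in 2 for AB205_0103950 and in 8 for AB205_0120320. In C22 both were highest in C2206, at 80752 and 70927 CPM, against at most 30557 and 26855 in the other C22 tadpoles.

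AB205_0012300 varied widely within every group. It had 9184, 13603, 9399, 6915 and 2706 CPM in C22 and 36350, 24293, 22861, 49322 and 48796 in D22, with no overlap. The log2 fold change of D22 over C22 was 2.10 (SE 0.44, unadjusted p = 0.000793 in edgeR's test across all genes), and its adjusted p was 0.148. In C32 the values ran from 6136 to 40980 CPM and in D32 from 7590 to 43557, so that these groups spanned nearly the whole range.

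AB205_0169310 had 38160, 29715, 43211, 30831 and 15103 CPM in D22 and 0, 9915, 10786, 11936 and 8679 in D32. The value of 0 was in D3202, and the groups did not overlap. With it the log2 fold change was -1.93 (SE 1.50, edgeR adjusted p = 0.434), and without D3202 it was -1.60 and passed (edgeR adjusted p = 0.0283). Values of 0 in otherwise high genes are described further on.

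The remaining genes of the top 10 stood highest in D22. AB205_0094890 had 25334, 16844, 25805, 24152 and 15411 CPM in D22 and 13138, 9724, 10056, 10720 and 8840 in D32. It fell by 1.04 on the log2 scale (SE 0.21, edgeR adjusted p = 0.0177). AB205_0006300 had 22243, 21048, 24988, 22663 and 12944 CPM in D22 and 10981, 7097, 9576, 8578 and 6859 in D32. It fell by 1.27 (SE 0.22, edgeR adjusted p = 0.0149), and neither gene overlapped between D22 and D32. AB205_0024470 had 21242, 19942, 20211, 17173 and 9983 CPM in D22 and 9076, 6870, 8327, 8140 and 6114 in D32. It too showed no overlap, and fell by 1.20 (SE 0.23, edgeR adjusted p = 0.0168). AB205_0102160 had 15392, 10530, 20912, 13411 and 9932 CPM in D22 and 10682, 9524, 9518, 8791 and 8524 in D32, which overlapped, with a log2 fold change of -0.58 (edgeR adjusted p = 0.115). Of the 10 genes, 6 were thus lower in D32 than in D22 by this test with TMM scaling and none was higher. Other scalings or tools added calls in both directions. Over 14 alternatives AB205_0169950 rose by up to 1.05, with a lowest adjusted p of 0.0244 (edgeR or DESeq2). For AB205_0102160, which fell, the lowest was 0.0383 (edgeR or DESeq2).

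**Figure D2:**
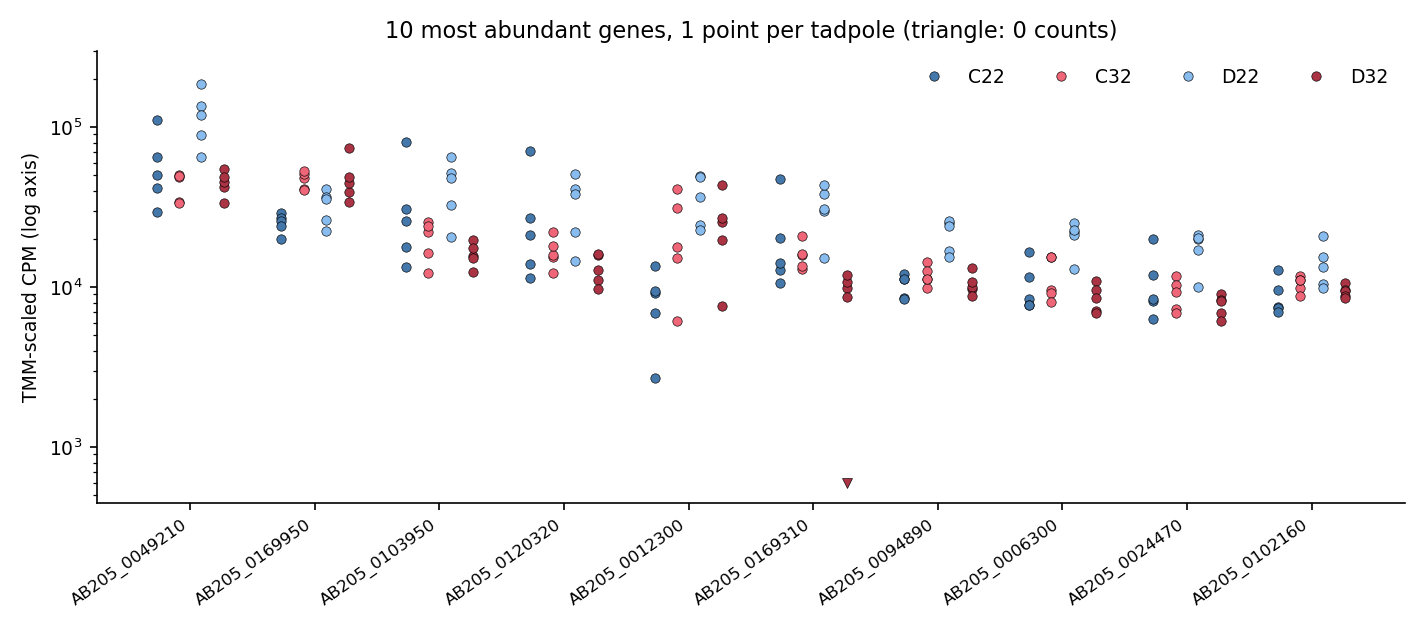
CPM of the 10 most abundant genes on a log axis, with 1 point per tadpole, coloured by code group, and a triangle at the bottom for a value of 0. For AB205_0049210 the D22 mean is the highest, and the D22 values of 65229 to 186297 CPM lie above those of D32, 33591 to 54776, while the means of AB205_0169950 are highest in C32 and D32, at 46848 and 48092 CPM.

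The TMM factors followed the share of counts, as both are computed from the same counts. They were 0.697, 0.708, 0.682, 0.805 and 1.03 in D22 (mean 0.784 ± 0.144), with D2209 the highest. The means were 1.07 ± 0.222 in C22, 1.10 ± 0.116 in C32 and 1.14 ± 0.159 in D32. The 4 low D22 factors lay below all those of C32 and D32, and within C22 only C2206, at 0.697, was as low. Other scaling methods gave D22 the same place, with a mean of 0.787 by TMM with singleton pairing, 0.776 by RLE and 0.799 by the upper quartile.

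The 148 genes accounted for much of the low D22 factors but not for all. Computed over the other 8329 genes, the D22 mean was 0.906 ± 0.0707, against 1.02 in C22, 1.04 in C32 and 1.05 in D32. On the log2 scale the mean D22 factor was -0.37. The share of counts left to the other genes gave -0.24 of it and the factor among those genes gave -0.15, which sum to -0.39. Leaving out only the 10 most abundant genes gave a D22 mean of 0.832.

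The shift went on below the 1000 CPM limit. With genes from 500 CPM left out, 272 genes in all, the D22 mean was 0.939, with the 557 genes from 200 CPM left out it was 0.964, and with the 993 genes from 100 CPM left out 0.970. Beyond that it stayed at 0.971 with the 1673 genes from 50 CPM left out. Of the limits tried, the largest single step was that of the 11 genes from 10000 CPM, which brought the mean to 0.826.

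**Figure D3:**
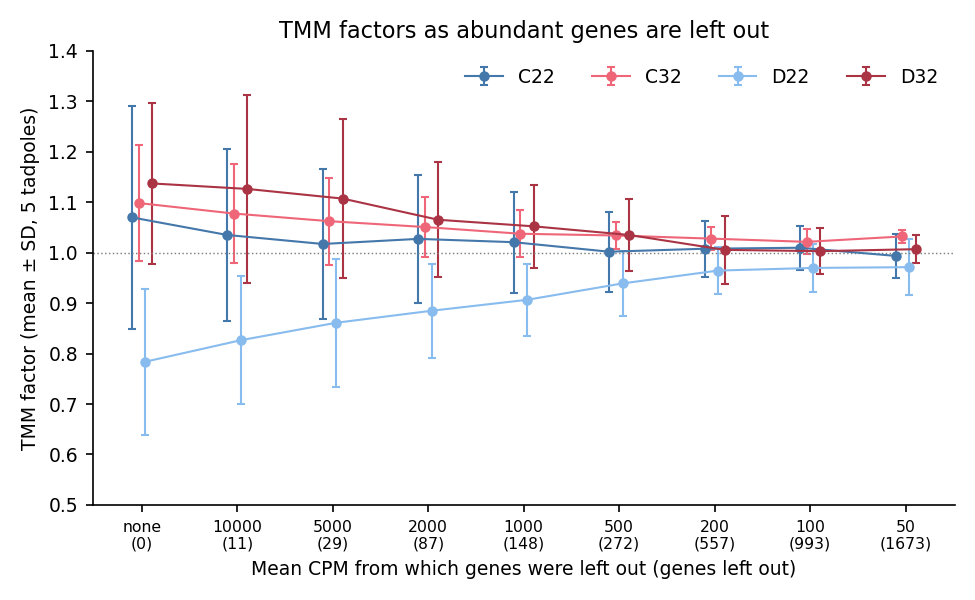
Mean TMM factor (± SD over 5 tadpoles, no unit) of each code group as genes above successively lower mean CPM limits were left out, with the number of genes left out in brackets. The D22 mean rose from 0.784 with all genes to 0.906 without the 148 genes and 0.971 without the 1673 genes from 50 CPM, while the other groups moved towards 1.

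Between D22 and D32 the abundant genes moved mostly downward, including 6 of the top 10. By edgeR's quasi-likelihood test with TMM scaling, 49 of the 148 genes (33.1%) were lower in D32 and 3 (2.03%) were higher. Over all 8477 genes 6.28% were lower and 6.39% higher, a balance that rests on the TMM scaling. This scaling raises the CPM of D22 through its low factors, which were in view when the genes were proposed. The calls, like the adjusted p given above for the top 10, are therefore not independent of how the genes were proposed. The median log2 fold change was -0.75 over the 148 genes and 0.03 over all genes, and 109 of the 148 were negative. The CPM of 44 of the 148 genes lay lower in all 5 D32 tadpoles than in any D22 tadpole and those of 3 lay higher, against 6.32% of all genes lower and 6.32% higher. The share of genes called lower grew with abundance, from 3.07% under 10 CPM through 7.01% from 10 to 100 CPM and 14.2% from 100 to 1000 CPM to 33.1% above, while the share called higher was 4.80, 8.78, 5.33 and 2.03%.

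The size of this shift depended on the scaling. Scaled by total counts alone, the median over all genes moved from 0.03 to 0.57 on the log2 scale and that of the 148 genes from -0.75 to -0.20, so the 148 genes lay -0.77 instead of -0.78 from all genes, a distance that a scaling of whole libraries leaves nearly fixed by construction. By total counts 29 of the 148 genes (19.6%) were lower and 9 (6.08%) higher, against 1.51% and 17.3% of all genes. All 49 genes called lower with TMM kept a negative log2 fold change, and 29 of them kept the call. Without D3207 the number of the 148 genes called fell from 52 to 26, and without D2209 it was 58. Calls over all genes were not recorded with these tadpoles left out. Whether the 148 genes changed more than the rest without these tadpoles thus cannot be told. Among the 123 genes above 0 in every tadpole, 47 were lower and 2 higher. Of the 49 lower genes, 46 met the 1000 CPM limit also over the 15 tadpoles outside D22, and 3 met it only with D22.

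**Figure D4:**
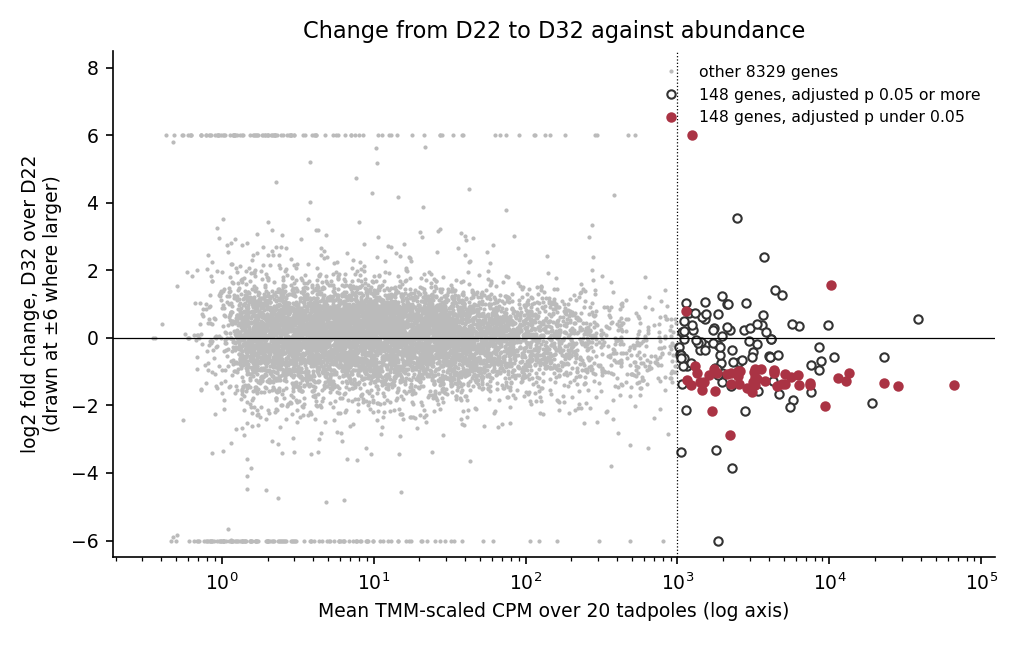
Log2 fold change of D32 over D22 (vertical axis, drawn at ±6 where larger) against mean CPM over 20 tadpoles (log axis), with 1 point per gene. Grey points are the other 8329 genes, open circles the 148 genes that did not pass and red points those that did, of which 49 lie below 0 and 3 above.

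The 49 falls were picked by adjusted p, which tends to leave out small ones. They ran from -0.84 to -2.86 on the log2 scale with a median of -1.27, and 35 of the 49 falls measured 1 to 1.5. AB205_0171850 had 25932, 14830, 21914, 14265 and 11956 CPM in D22 and 4034, 3609, 6034, 3198 and 4901 in D32, far apart. It fell by 2.03 (SE 0.28, edgeR adjusted p = 0.00838), the smallest adjusted p of the 148 genes. AB205_0011140 had 3539, 2671, 3555, 3773 and 1851 CPM in D22 and 1057, 596, 882, 460.1 and 402 in D32. It fell by 2.18 (SE 0.33, edgeR adjusted p = 0.0107), again without overlap. AB205_0045430 had 3857, 2236, 2942, 3143 and 1782 CPM in D22 and 792, 727, 1122, 1074 and 976 in D32. It fell by 1.57 (SE 0.25, edgeR adjusted p = 0.0110). AB205_0202560 had 5024, 3550, 4885, 5385 and 2526 CPM in D22 and 1915, 1419, 1800.1, 1804 and 1307 in D32. It fell by 1.37 (SE 0.24, edgeR adjusted p = 0.0149). In all 4 genes D2209 was the lowest D22 tadpole and still lay above every D32 tadpole.

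The 3 genes that rose did so in different ways. AB205_0016620 had 950, 793, 1184, 644 and 807 CPM in D22 and 1955, 1594, 1289, 1354 and 1434 in D32, with no overlap (log2 fold change 0.80, SE 0.21, edgeR adjusted p = 0.0387). AB205_0182740 had 5388, 4624, 3501, 6354 and 8946 CPM in D22 and 23769, 23645, 9143, 6027 and 22333 in D32, where D3206 lay within the D22 range (log2 fold change 1.56, SE 0.43, edgeR adjusted p = 0.0450). AB205_0032400 was near absence or high, with 0, 0.503, 0, 0 and 0 CPM in D22 and 9813, 3317, 0.575, 0 and 5061 in D32. It passed the test (edgeR adjusted p = 0.0289), but 2 of the 5 D32 tadpoles were as low as D22. It met the 1000 CPM limit only through D32, with a mean of 454 CPM over the other 15 tadpoles, so the rule itself favoured this call. Each of the 3 calls was lost when some single tadpoles were left out, with adjusted p up to 0.0808, 0.103 and 0.0954.

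The 49 genes that were lower in D32 took 36.4 ± 5.57% of counts in D22 and 21.8 ± 2.11% in D32, which restates how they were picked. In the C tadpoles, which that comparison did not use, they took 28.6 ± 7.42% in C22 and 24.8 ± 2.38% in C32. Their median log2 fold change of C32 over C22 was -0.26, against -0.01 for all genes, with 41 of 49 negative, 4 at an unadjusted p under 0.05 and none called. This rested on C2206: without it the median was 0.11 and 13 of 49 were negative.

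Between C22 and C32, 1 of the 148 genes was called higher (0.248% of all genes were) and 0 lower (0.342% of all genes). At an unadjusted p under 0.05 there were 31 of the 148, 20.9%, the same share as the 20.9% of all genes. The median was -0.20 for the 148 genes and -0.01 for all. DESeq2 called 22 of the 148 genes (14.9%, against 11.8% of all genes it tested), edgeR's likelihood ratio test 2 (against 3.03% of all genes) and limma voom 2 (against 1.42%). The gene called was AB205_0000007, with 822, 970.2, 1397, 856 and 1611 CPM in C22 and 2855, 3332, 2372, 3287 and 2681 in C32. The groups did not overlap, and the log2 fold change was 1.36 (SE 0.24, edgeR adjusted p = 0.0434). The call was fragile, since leaving out each tadpole in turn gave adjusted p from 0.0465 to 0.113.

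Between C22 and D22 none of the 148 genes was called, and 0% of all genes were, by edgeR's quasi-likelihood test. At an unadjusted p under 0.05, 27 of the 148 (18.2%) were higher in D22 against 4.87% of all genes, and 6 (4.05%) were lower against 6.87%. All values of this comparison depend on how the genes were proposed, since the low TMM factors of D22 were then in view. DESeq2 called 18 of the 148 genes (12.2%, against 4.25% of all genes it tested), the likelihood ratio test 7 (4.73%, against 1.5%) and limma voom 3 (2.03%, against 0.201%). The median log2 fold change was 0.51 for the 148 genes and -0.05 for all genes, and by total counts 0.17 and -0.47. With C2206 and D2209 both left out, 1 of the 148 genes was called, higher in D22, and 0.0472% of all genes were. These tadpoles were picked after the values had been seen, which favours such a call.

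Between C32 and D32 edgeR's quasi-likelihood test called none of the 148 genes and 0% of all genes, and 16 of the 148 (10.8%) reached an unadjusted p under 0.05, against 7.35% of all genes. DESeq2 called 3 of the 148 genes (2.03%, against 1.7% of all genes it tested), the likelihood ratio test 0 (against 0.0944%) and limma voom 0 (against 0%). The median log2 fold change was -0.17 for the 148 genes and 0.00 for all genes.

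Whether the step from 22 to 32 differed between the letters was tested as an interaction in one fit of all 20 tadpoles. None of the 148 genes passed, nor did any gene (0%), in edgeR's quasi-likelihood test. At an unadjusted p under 0.05, 42 of the 148 (28.4%) had a lower step in D, against 5.8% of all genes, and 10 (6.76%) a higher one, against 7.14%. The step in D starts from D22, so the values of this test too are not independent of how the genes were proposed. The median was -0.67 for the 148 genes and 0.04 for all genes. DESeq2 called 18 of the 148 genes (12.2%, against 5.18% of all genes it tested), the likelihood ratio test 1 (against 0.283%) and limma voom 0 (against 0%). By the quasi-likelihood test the calls in D and their near absence in C are therefore not shown to differ gene by gene. This does not hold for every tool. DESeq2 made calls in C too (14.9% of the 148 genes, against 11.8% of all genes it tested), beside those for the interaction.

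Over all 20 tadpoles, the 10 with codes of 32 were compared with the 10 with codes of 22, which by the treatment fields is depleted against colonized. Of the 148 genes 40 (27.0%) were lower and 5 (3.38%) higher, against 11.3 and 11% of all genes, and by total counts 21 were lower and 8 higher, against 4.26 and 13.8% of all genes. The codes with 22 include D22, whose low TMM factors were in view when the genes were proposed, so these calls are not independent of that choice. The limit of 1000 CPM was met only through the tadpoles with the higher level by 7 of the 40 and by 3 of the 5. Among the 7 were AB205_0023650, AB205_0027410, AB205_0126240 and AB205_0011140, named below, so the rule itself favoured their calls. The 5 lower genes with the smallest adjusted p had mean levels of 1159 CPM (AB205_0126240) to 1775 CPM (AB205_0028360). AB205_0023650 had 1735, 907, 3598, 1554 and 2050 CPM in C22 and 535, 869, 770.0, 956 and 757 in C32, then 2407, 2005, 2888, 2469 and 1629 in D22 and 1081, 1104, 521, 561 and 623 in D32. It was at most 1104 CPM in the 10 tadpoles with 32, and C2204, at 907 CPM, lay within their range. With 32 it fell by 1.45 (SE 0.22, edgeR adjusted p = 0.000239). AB205_0027410, AB205_0126240, AB205_0011140 and AB205_0028360 fell by 1.11, 1.11, 1.55 and 1.02, with edgeR adjusted p of 0.00112, 0.00150, 0.00177 and 0.00465.

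The 5 genes higher with 32 were AB205_0016620, AB205_0155310, AB205_0169950, AB205_0000007 and AB205_0074800. Of these, AB205_0016620, AB205_0155310 and AB205_0074800 met the abundance limit only through the tadpoles with 32, so the rule itself favoured their calls. AB205_0016620 had 1007, 689, 645, 546 and 835 CPM in C22 and 1101, 1562, 1270, 1886 and 1330 in C32, so with the D values above every tadpole with 32 exceeded every C22 tadpole. Its log2 fold change was 0.87 (SE 0.15, edgeR adjusted p = 0.000630). AB205_0155310 had 1051, 618, 917, 1234 and 643 CPM in C22 and 1425, 1738, 1384, 1579 and 1740 in C32, with 464 to 900 CPM in D22 and 991 to 2377 in D32. Its log2 fold change was 0.91 (SE 0.19, edgeR adjusted p = 0.00221). AB205_0000007 and AB205_0074800 had log2 fold changes of 1.17 and 0.80 (edgeR adjusted p = 0.0148 and 0.0340), and with single tadpoles left out the adjusted p of AB205_0074800 reached 0.0613.

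A group of 11 among the 148 genes stood apart in its identifiers, with tag numbers up to 37, where 23 genes of the table fall, while the next tag among the 148 is 390. It was noticed after the values had been seen, and its share is given without a test between groups. The 11 genes took 3.72 ± 1.69% of counts in C22, 2.20 ± 0.519% in C32, 2.27 ± 0.803% in D22 and 4.59 ± 4.16% in D32. The D32 mean came from D3202, where they took 12.0%, and without it was 2.74 ± 0.554%. Apart from AB205_0000007, the group moved together: correlations between the other 10 genes over the 20 tadpoles, which share depth and scaling, were between 0.836 and 0.993.

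AB205_0000007 left this group between C22 and C32. The other 10 genes all had negative log2 fold changes of C32 over C22, from -0.68 to -1.50, with 9 at an unadjusted p under 0.05 and none called (smallest edgeR adjusted p 0.0837), while AB205_0000007 rose. Within each library, which needs no scaling, AB205_0000007 made up 2.45 to 4.93% of the counts of the 11 genes in C22 (mean 3.45 ± 1.07%) and 12.9 to 17.2% in C32 (mean 14.7 ± 1.81%). These ranges were far apart. In D22 it made up 9.11, 5.67, 1.20, 2.76 and 9.13%, and in D32 4.64, 3.36, 18.4, 13.7 and 6.95%, with wide overlap.

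Some of the most abundant genes had no counts at all in single tadpoles. Of the 148 genes, 25 (16.9%) were at 0 in at least 1 tadpole, against 11.4% of the genes from 100 to 1000 CPM and 23.5% of all genes. Of the 2960 values of the 148 genes 133 were 0, 36 in C22, 31 in C32, 22 in D22 and 44 in D32, and only 5 lay between 1 and 19 counts. In 22 of the 25 genes the lowest value above 0 was at least 300 CPM. In these 22 genes the values were thus either 0 or at least 300 CPM. Other genes of the 148 had low values above 0, such as AB205_0126200 at 0.861 CPM in D3206.

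AB205_0169310, at 0 in D3202, had 8679 to 47089 CPM in the other 19 tadpoles, with at least 193019 counts in each. AB205_0061370 was at 0 in 14 tadpoles, all 5 of D32 among them, and had 3827 to 9012 CPM in the other 6. AB205_0208260 was at 0 in 15 tadpoles and had 2636 to 6834 CPM in the rest. AB205_0065710, AB205_0144250 and AB205_0037670 were at 0 in the same 3 tadpoles, C2208, D2203 and D3206. These genes were picked out after their values were seen, and the source of the zeros was not tested. Only 2 of the 49 genes lower in D32 than in D22 had a value of 0 in any tadpole.

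**Figure D5:**
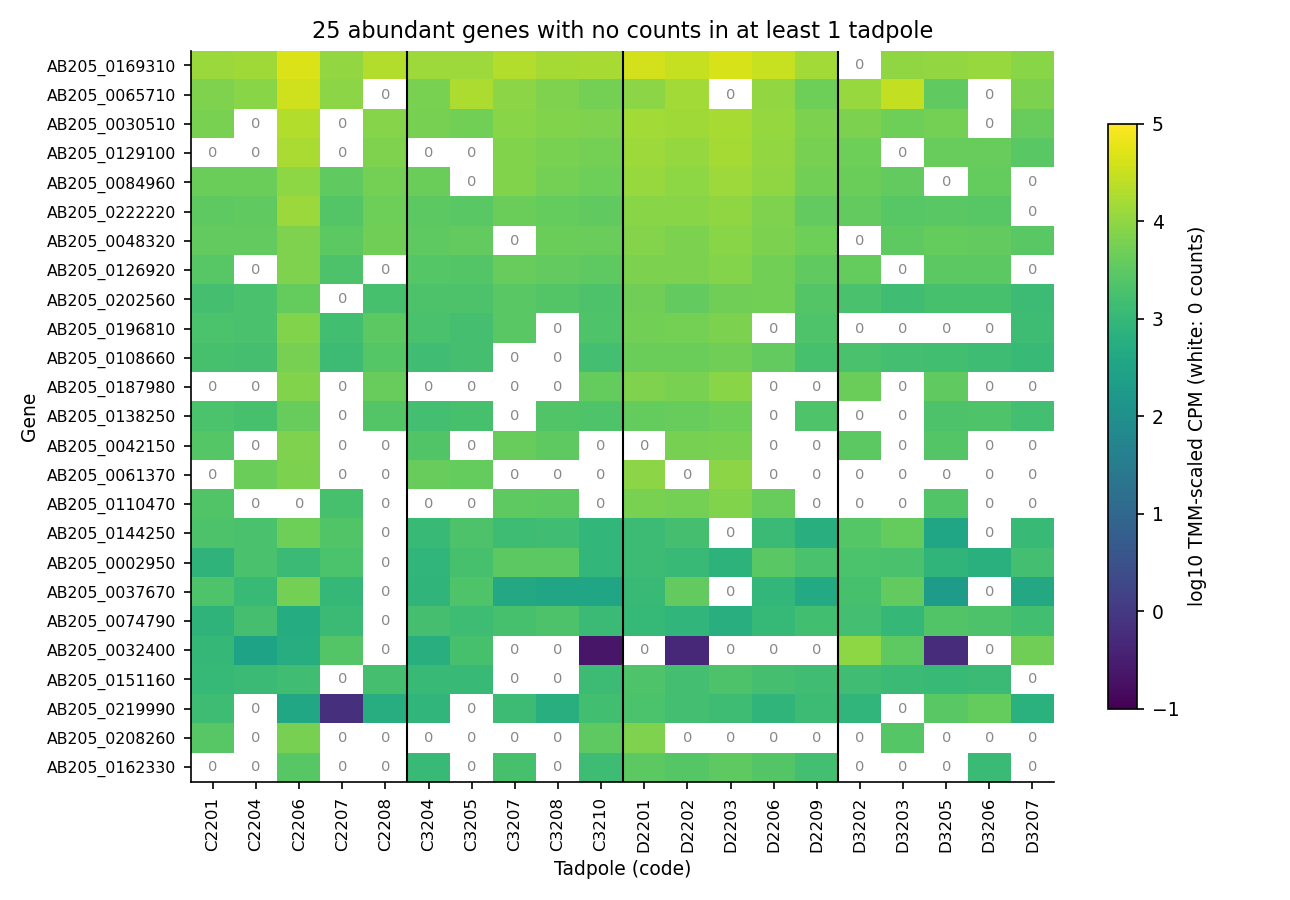
Log10 CPM (colour) of the 25 genes of the 148 with a value of 0 in at least 1 tadpole, with genes in rows from the most to the least abundant and the 20 tadpoles in columns by code group, where white cells marked 0 have no counts. AB205_0169310 is at 0 in D3202 alone and AB205_0208260 in 15 tadpoles, and cells are either white or above 300 CPM in 22 of the 25 genes.

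The 148 genes differed widely in how far they varied among tadpoles. The median coefficient of variation (SD over mean) was 0.516, with 11 genes under 0.3 and 14 over 1. The steadiest was AB205_0106760, with a coefficient of 0.146 and 2849 to 5113 CPM, and group means of 3635 in C22, 4336 in C32, 4384 in D22 and 4254 in D32. The most variable was AB205_0062790, with a coefficient of 3.67. It had 67354 CPM in C2208 and 15493 in C2204, and from 3.30 to 46.9 CPM in the other 18 tadpoles, so that 2 tadpoles alone placed it among the abundant genes. AB205_0092280 ran from 43.5 CPM in D3206 to 12210 in D3203, within the same group.

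Several abundant genes rose and fell together over the 20 tadpoles. With TMM scaling 551 of the 10878 pairs of the 148 genes had a Pearson correlation of at least 0.9, and with total counts 242, a description over tadpoles that share the 4 groups and, with TMM, the scaling factors. The genes most like AB205_0049210 by total counts were AB205_0024470 (r = 0.862), AB205_0128030 (r = 0.844) and AB205_0094500 (r = 0.840). With TMM scaling 25 genes reached 0.9 with it and with total counts none did. Among the 148 genes, outside the group with low tag numbers, are 4 pairs with consecutive identifiers in the annotation. By total counts r was 0.979 for AB205_0102150 and AB205_0102160, 0.847 for AB205_0214420 and AB205_0214430, 0.769 for AB205_0074790 and AB205_0074800, and 0.0651 for AB205_0001690 and AB205_0001700. The r of 0.769 includes C2208, where AB205_0074790 had 0 counts and AB205_0074800 had 3074. In every other tadpole both genes had similar counts. Values of 0 enter all correlations of genes that hold them, including the numbers of pairs given above.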

How the data were processed

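Gut RNA of 20 tadpoles was sequenced on TruSeq libraries. Per the study's methods and the labels, reads were trimmed with Trim Galore, mapped with BWA to the American bullfrog draft genome and counted with StringTie, and low transcripts were removed (versions not given in the sources used here). The values deposited by the authors are raw read counts for each gene, whole numbers without scaling, and all 8477 genes had at least 2 CPM in at least 3 tadpoles. Reads were mapped to the genome of another species, and counts of related genes may be shared or split between copies.

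Counts were analysed in R 4.3.3 with edgeR 4.0.16 (TMM factors over all 20 libraries for CPM; glmQLFit and glmQLFTest for calls, within the 10 tadpoles of a pair, Benjamini-Hochberg adjusted p under 0.05 over all 8477 genes, no minimum fold change). Standard errors were obtained by dividing the size of a log2 fold change by the root of its F statistic. Shares of counts were compared by exact permutation, and differences in share that involve D22 are given without a test. DESeq2 1.42.0, limma 3.58.1 (voom with quality weights), the likelihood ratio test, other scalings, a filter on low counts, other limits of abundance, 1 fit of all groups, a replicate block and each tadpole left out were the alternatives, and leaving out 2 tadpoles together and successive CPM limits were added after the values had been seen. The code was tested on simulated data. Pairs of libraries correlated at 0.756 to 0.917 and none was a copy.

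Groups follow the animal codes. Each library is a separate tadpole. The 148 genes, the lists and the tests were chosen with earlier results of these data known. Named genes are the 10 with the highest mean CPM, up to 5 called in each direction of a comparison by smallest adjusted p, the 5 with the largest gain and loss of share in D22, the top gene of each tadpole, those beside the limit, and the most and least variable, except where another choice is stated. No genome, annotation or gene names were used here, so lists of digestive enzymes, ribosomal proteins and cell type markers were not analysed here, and no coordinates are given.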

Additional observations from a re-analysis of the deposited data

Results flagged for a closer look

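Among 128 groups of 5 values looked at, 13 held a tadpole far from the others (Dixon's test at the 95% level). At 1 in 20 about 6.4 would be flagged, but that figure is not a fair comparison here. Many of the genes were named for their values in these data, and the groups of values are not independent. D3202 was the highest of D32 for the share of the 148 genes, 66.4% of counts against 59.8% in the next tadpole, and for the share of the 11 genes with low tag numbers, 12.0% against 3.31%. It was also the lowest of D32 for AB205_0169310, at 0 CPM. C2206 was the highest of C22 in 7 genes: AB205_0103950 at 80752 CPM, AB205_0120320 at 70927, AB205_0169310 at 47089, AB205_0011140 at 4660, AB205_0045430 at 3045, AB205_0028360 at 4302 and AB205_0065710 at 37563. C2208 was the highest of C22 for AB205_0062790, at 67354 CPM. D2203 was the highest of D22 for AB205_0126240, at 2830 CPM, and D2202 for AB205_0032400, at 0.503 CPM where the other D22 tadpoles were at 0.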

How the results depend on the processing

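The number of the 148 genes called was 52 for D32 against D22 and 38 to 70 under the other scalings, tools and filters, except that a replicate block gave 0. Same-numbered tadpoles correlated at -0.206 to 0.0928 in their deviations from the group means. Differently numbered tadpoles were not compared, so whether the numbers in the codes pair the tadpoles was not tested. The replicate block also gave 0 instead of 1 for C32 against C22, on the few tadpoles that share a number. For C32 against C22 DESeq2 called 22, the likelihood ratio test 2, limma voom 2 and one fit of all groups 4. For D22 against C22 these gave 18, 7, 3 and 2, and leaving out D2209 and C2206 gave 1. DESeq2 called 3 for D32 against C32, and 18 for the interaction, where the likelihood ratio test called 1. Total counts gave 29 called for codes 32 against 22 instead of 45, and a median log2 fold change of -0.20 for D32 against D22. Over each tadpole left out, calls ranged from 0 to 3 for C32 against C22, 26 to 58 for D32 against D22, 0 to 1 for D22 against C22 and 30 to 55 for codes 32 against 22, and stayed at 0 for D32 against C32 and the interaction. The cause was not tested.

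The share of counts kept its direction in D32 against D22 (-10.0 to -7.71 points over each tadpole left out) and D22 against C22 (5.39 to 9.45 points), and in D32 against C32 (-2.53 to -0.26 points). In C32 against C22, where the difference was -0.41 points, it was 0.22 with a limit of 500 CPM, 1.96 with a median of at least 1000 CPM, 1.18 for the 10 most abundant genes, and -2.08 to 1.97 over each tadpole left out. The mean D22 TMM factor was 0.784 with all genes, 0.939, 0.964, 0.970 and 0.971 with genes from 500, 200, 100 and 50 CPM left out, which by construction removes abundant genes, and 0.744 to 0.793 over each tadpole left out.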
